A study of Rattus norvegicus with 9 samples.

Results

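Bile acid genes were followed in rat kidney: the receptor gene Nr1h4, the enzyme gene Cyp8b1 and 8 further genes of bile acid synthesis, transport and sensing (Nr0b2, Slc51a, Slc51b, Cyp7b1, Cyp27a1, Slc10a2, Gpbar1 and Baat). The 10 genes were named for their role and because strain differences of Nr1h4 and Cyp8b1 were already known from these arrays, so their strain differences are described here without a test. Of the 10, 9 had a probe matched by RefSeq identifier, out of 13903 genes with a probe, and all 9 passed the signal filter. Slc51b had no matched probe and has no value. The kidneys came from 9 male rats, with 3 rats in each of 3 strains. Dahl S are the salt-sensitive and Dahl R the salt-resistant line of Dahl rats, and SHR are spontaneously hypertensive rats. All were 53 days old, shared a birth date, were weaned at 30 days and then ate a diet with 0.3% salt, and no other treatment is named. Each rat gave 1 one-colour Agilent array, hybridised with Cy3-labelled RNA made from 1 µg of total RNA. The labels do not say whether rats of a strain shared a litter or a preparation, so p-values measure the spread between these samples.

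Bile acids are made from cholesterol in the liver by a series of enzymes, secreted into the gut, taken up again in the ileum and returned to the liver. The nuclear receptor FXR, encoded by Nr1h4, binds bile acids and, paired with RXR, induces genes such as Nr0b2 and the exporters Slc51a and Slc51b. The kidney filters bile acids that escape the liver, and its proximal tubule takes them back through the sodium-dependent carrier Slc10a2. The tubule also expresses FXR.

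The promoters of 4 of the genes that differed between strains are shown for what lies upstream of them. Each is the RefSeq sequence of the 250 bases before the annotated start, 5′ to 3′ on the gene's strand, in build GRCr8, with capitals for motif matches:

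Cyp8b1 (chr8:130457593-130457842, minus strand): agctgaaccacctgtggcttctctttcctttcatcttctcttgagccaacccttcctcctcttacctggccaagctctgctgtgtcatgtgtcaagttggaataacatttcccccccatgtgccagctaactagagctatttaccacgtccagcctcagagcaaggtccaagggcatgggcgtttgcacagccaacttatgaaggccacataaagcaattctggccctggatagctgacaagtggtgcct
Slc10a2 (chr16:91087839-91088088, plus strand): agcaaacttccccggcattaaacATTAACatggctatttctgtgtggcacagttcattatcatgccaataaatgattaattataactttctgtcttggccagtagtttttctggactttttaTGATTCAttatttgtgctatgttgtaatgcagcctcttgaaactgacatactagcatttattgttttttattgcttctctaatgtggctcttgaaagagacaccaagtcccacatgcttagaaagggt
Cyp27a1 (chr9:83713282-83713531, plus strand): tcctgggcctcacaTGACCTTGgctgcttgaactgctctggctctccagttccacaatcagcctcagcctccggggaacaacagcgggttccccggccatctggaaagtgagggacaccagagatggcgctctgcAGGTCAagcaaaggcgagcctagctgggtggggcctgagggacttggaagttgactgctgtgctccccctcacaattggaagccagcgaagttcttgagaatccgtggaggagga
Gpbar1 (chr9:83309645-83309894, plus strand): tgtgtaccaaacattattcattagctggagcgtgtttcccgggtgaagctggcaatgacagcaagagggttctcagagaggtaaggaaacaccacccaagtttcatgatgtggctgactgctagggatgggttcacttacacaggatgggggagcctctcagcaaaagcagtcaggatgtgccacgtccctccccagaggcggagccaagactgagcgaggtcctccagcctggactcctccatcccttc

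Of the 10 genes, 8 had an entry in the RefSeq promoter table; Nr1h4 and Cyp7b1 were not among them. These letters come from the reference rat and not from the 3 strains. Both strands were searched for 7 motifs, which gave 9 matches in the 8 promoters. In Cyp27a1 the nuclear receptor hexamer AGGTCA lay 236 to 231 bases before the start on the opposite strand and again 115 to 110 bases before it; 14.1% of the 33469 RefSeq promoters hold this hexamer. The first of these Cyp27a1 matches lies inside a match to the longer CAAGGTCA, found in 1.33% of promoters. Slc10a2 held GTTAAT, the core of HNF1 sites (6.45% of promoters), and TGANTCA, the AP-1 motif (6.34%). Slc51b held AGGTCA and TGANTCA, Baat held the HNF4A core CAAAGTCCA (0.338% of promoters), and Nr0b2 held the TATA box TATAAA (12.9%). An inverted repeat of GGTCA with any 1 base between its copies, the form of the FXR site searched, was in none of the 8 windows and in 0.0388% of all promoters. The windows of Cyp8b1, Gpbar1 and Slc51a held none of the 7 motifs as spelled.

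Values are log2 signals relative to the 75th percentile of the array, so 0 is the brightness that 75% of its spots do not exceed, and levels are compared between arrays for a probe, and no gene is called more abundant than another from them. The fit with limma tested 16592 probes. An adjusted p under 0.05 (Benjamini-Hochberg over all probes) was reached by 233 probes between Dahl S and Dahl R, 2605 between Dahl S and SHR and 2165 between SHR and Dahl R. SHR replicate 3 stood apart: 36.3% of its spots were well above background against 53.7% to 65.5% on the other arrays, and 7.93% were marked as outliers against 1.49% to 2.62%. Without it the counts were 761, 4345 and 3772. Leaving out any 1 array of Dahl S or Dahl R took the Dahl S against Dahl R count to between 74 and 125, leaving out any 1 Dahl R array took the SHR against Dahl R count to between 960 and 1157, and without Dahl S replicate 2 or 3 the Dahl S against SHR count was 1280 or 1510. The arrays were scanned in 3 groups: scan 1 held the Dahl S arrays and Dahl R replicate 1, scan 2 held Dahl R replicates 2 and 3 and SHR replicates 1 and 2, and scan 3 held SHR replicate 3 alone. Dahl S and SHR therefore shared no scan. When scan is added to the fit as a block, Dahl S minus SHR is reached only through Dahl R. Its Dahl S side then rests on the single Dahl R array of scan 1. SHR replicate 3, alone in its scan, adds nothing to the differences under that setting. A call lost with scan as a block is thus not read as an effect of the scan. The kidney label was checked on markers: all 8 proximal tubule genes with a probe (of 9 listed) were well above background on all 9 arrays, and their signals, each divided by the array's 75th percentile and marked spots kept, summed to between 777 and 811 in Dahl S, 688 and 812 in Dahl R, and 653 and 678 in SHR. In this bulk RNA, fewer cells of a type and less RNA per cell cannot be told apart.

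Nr1h4, the bile acid receptor FXR, was near the dim end of the array in both Dahl strains and bright in SHR (RefSeq transcript NM_021745.1). Its level was −4.06, −4.27 and −4.99 in Dahl S, −5.29, −5.00 and −5.31 in Dahl R, and 0.77, 0.80 and 1.27 in SHR. All 9 spots were well above background, and every SHR value lay above every Dahl value. The means were −4.44 ± 0.49 (SD, n = 3) in Dahl S, −5.20 ± 0.17 in Dahl R and 0.95 ± 0.28 in SHR. SHR exceeded Dahl R by 6.15 ± 0.26 (SE) on the log2 scale, a 70.8-fold difference, and Dahl S by 41.9-fold, with Dahl S minus SHR at −5.39 ± 0.26. The Dahl strains differed by 0.76 ± 0.26, with the Dahl S values above those of Dahl R without overlap. The gap was narrow, with Dahl S replicate 3 at −4.99 and Dahl R replicate 2 at −5.00. Values of the Dahl strains did not overlap for 31.1% of all probes. Within scan 2, with 2 arrays a strain, SHR minus Dahl R was 5.94. A difference of 4 or more in size was found for 0.295% of the probes tested in SHR against Dahl R and for 0.325% in Dahl S against SHR; Nr1h4, Cyp8b1 and Slc10a2 are among them by the values that chose Nr1h4 and Cyp8b1.

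Cyp8b1, the sterol 12α-hydroxylase that directs synthesis toward cholic acid, was likewise high in SHR (RefSeq transcript NM_031241.1). Its level was −2.09, −2.04 and −2.03 in Dahl S and −1.18, −1.33 and −1.98 in Dahl R. In SHR it was 3.65 and 3.65 in replicates 1 and 2. The spot of SHR replicate 3 was marked for uneven pixels and left out; kept, it read 2.93. SHR was thus bright on each array, with or without that spot, and no Dahl array came near it. The difference was 5.15 ± 0.23 for SHR minus Dahl R (35.6-fold) and −5.71 ± 0.23 for Dahl S minus SHR (52.3-fold higher in SHR). Dahl S lay below Dahl R by a smaller amount, −0.55 ± 0.20, and Dahl R replicate 3 was close to the Dahl S values. Within scan 2, SHR minus Dahl R was 5.31. Cyp8b1 is known as a liver enzyme, so the liver marker list is given beside it. Of its 10 genes, Ahsg, Cyp7a1 and Tat were well above background on no array. The summed signal of the list was 6.65 to 8.01 in Dahl S, 12.7 to 16.5 in SHR and 21.0 to 22.9 in Dahl R. Its members did not share an order: Serpinc1, the largest term of the sum in Dahl R and SHR, had means of 1.82 in Dahl S, 4.02 in Dahl R and 3.26 in SHR, and Apoh had means of −0.80, 0.60 and 1.13. F2 was lowest in SHR, with means of 1.46, 1.85 and 0.58 in the same order. Over the 7 liver markers tested, the median difference was −0.42 for Dahl S minus SHR and −0.33 for SHR minus Dahl R. The part of liver RNA in the Cyp8b1 difference was not tested.

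**Figure D1:**
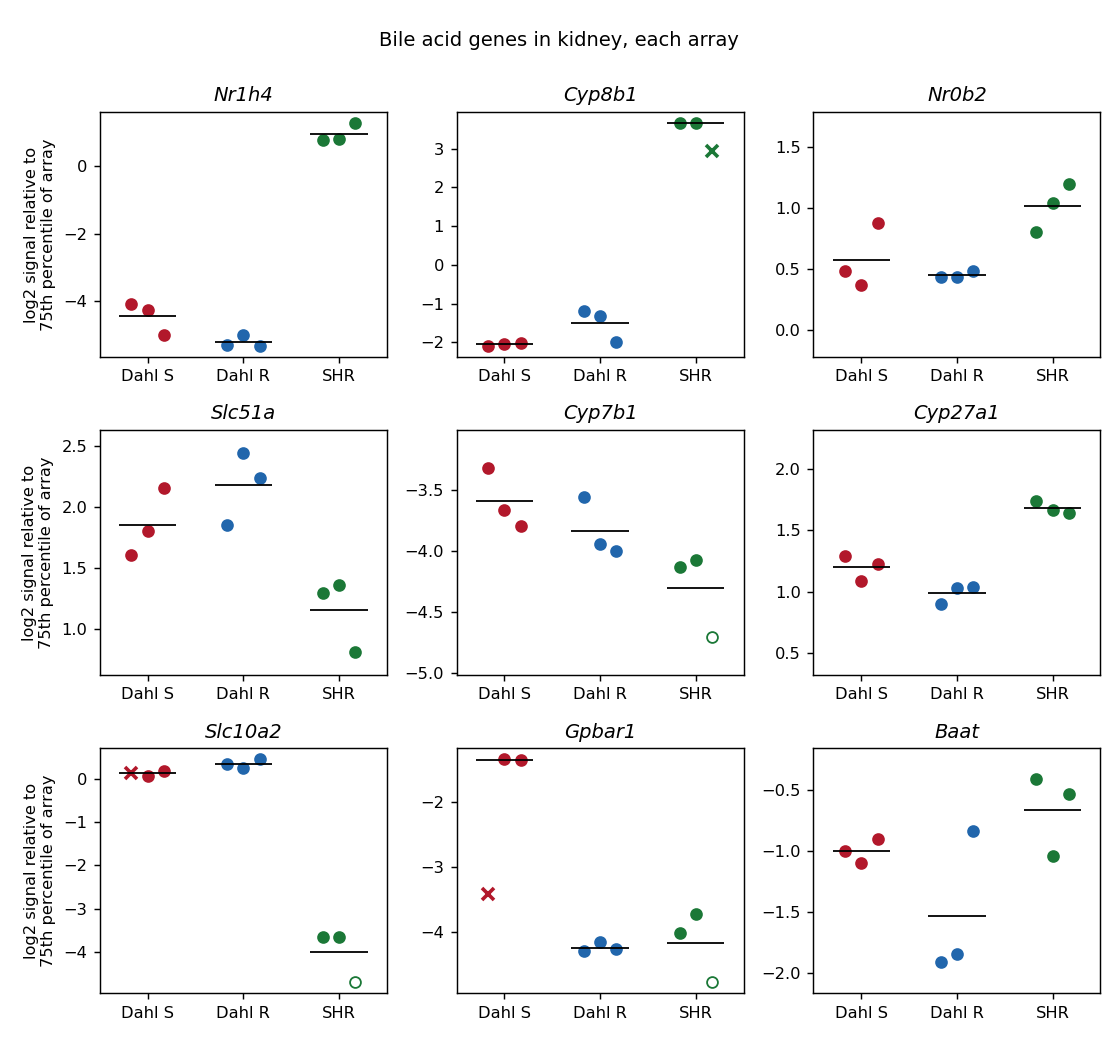
Level of each of the 9 bile acid genes on every array, as log2 signal relative to the 75th percentile of the array (vertical axis, with its own range in each panel), for Dahl S, Dahl R and SHR. Filled points are well above background, open points are not, crosses are spots marked for uneven pixels and left out of the mean, and the line is the mean; Nr1h4 and Cyp8b1 are high in SHR, Slc10a2 is low in SHR, and Gpbar1 is high on the Dahl S arrays that were kept.

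The other sensors and the FXR target showed different patterns. Gpbar1, also called TGR5, is the bile acid receptor of the cell surface. It read −1.36 and −1.37 in Dahl S replicates 2 and 3. Dahl S replicate 1 was marked for uneven pixels and left out; kept, it read −3.41, closer to the other strains than to its own. Dahl R read −4.29, −4.15 and −4.25, and SHR read −4.00, −3.72 and −4.76, the last not well above background. Dahl S minus Dahl R was 2.87 ± 0.28 (7.30-fold) and Dahl S minus SHR 2.80 ± 0.28 (6.95-fold), from 2 Dahl S arrays. With the marked spot kept these were 2.19 and 2.11, and the Dahl S values still lay above those of both other strains. Dahl R and SHR overlapped and differed by 0.07 ± 0.25. Within scan 1, Dahl S minus Dahl R was 2.93, against the single Dahl R array there.

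Nr0b2, the repressor SHP that FXR induces in liver, differed by a small amount. It was 0.48, 0.36 and 0.88 in Dahl S, 0.43, 0.43 and 0.48 in Dahl R, and 0.80, 1.04 and 1.20 in SHR. SHR lay above Dahl R without overlap, but overlapped Dahl S because Dahl S replicate 3 was as high as SHR replicate 1. SHR minus Dahl R was 0.57 ± 0.16, or 1.48-fold, beside the 70.8-fold difference of Nr1h4 in the same rats.

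Among the other enzymes, Cyp27a1 was higher in SHR by a small and even amount. Cyp27a1 is the mitochondrial sterol 27-hydroxylase that opens the acidic pathway. It was 1.29, 1.08 and 1.22 in Dahl S, 0.90, 1.03 and 1.04 in Dahl R, and 1.74, 1.67 and 1.65 in SHR. The SHR values lay above all others, with SHR minus Dahl R at 0.69 ± 0.09 (1.62-fold) and Dahl S minus SHR at −0.49 ± 0.09. Dahl S and Dahl R differed by 0.21 ± 0.09.

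Cyp7b1, the oxysterol 7α-hydroxylase of the acidic pathway, was dim everywhere. It was −3.32, −3.66 and −3.79 in Dahl S, −3.56, −3.94 and −4.00 in Dahl R, and −4.13, −4.07 and −4.70 in SHR, where replicate 3 was not well above background. The SHR values lay below the rest. Dahl S minus SHR was 0.71 ± 0.22 and SHR minus Dahl R −0.47 ± 0.22. Within scan 2 the latter was −0.13, and with scan as a block Dahl S minus SHR was 0.10.

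Baat, the enzyme that joins bile acids to glycine or taurine, overlapped between all 3 strains. It was −0.99, −1.10 and −0.90 in Dahl S, −1.91, −1.84 and −0.83 in Dahl R, and −0.41, −1.04 and −0.53 in SHR. Dahl R replicate 3 stood above the other Dahl R arrays, among the values of the other strains. SHR minus Dahl R was 0.87 ± 0.30, and Dahl S minus SHR was −0.34 ± 0.30 without and 0.30 with scan as a block.

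Of the transporters, Slc10a2 showed the reverse of the Nr1h4 pattern. Slc10a2 encodes ASBT, the sodium-dependent carrier that takes bile acids up in ileum and proximal tubule. It was 0.07 and 0.16 in Dahl S replicates 2 and 3, and 0.12 in replicate 1 if that spot, marked for uneven pixels, is kept. Dahl R read 0.33, 0.24 and 0.44. In SHR it was −3.64, −3.65 and −4.67, the last not well above background. Dahl S minus Dahl R was −0.22 ± 0.31, and SHR was far below both. SHR minus Dahl R was −4.32 ± 0.28, 20.0-fold lower in SHR, and Dahl S minus SHR was 4.10 ± 0.31, 17.2-fold. Within scan 2, SHR minus Dahl R was −3.98. The proximal tubule markers given above were 653 to 678 in SHR and 688 to 812 in Dahl R; their part in the Slc10a2 difference was not tested. Of the 7 intestine markers, 4 had a probe, Fabp2 was well above background on no array, and the summed signal was 12.2 to 15.7 in Dahl S, 13.8 to 16.1 in Dahl R and 12.5 to 17.7 in SHR. Vil1 is by far the largest term of this sum, with means of 3.77 in Dahl S, 3.86 in Dahl R and 3.81 in SHR. The sum therefore says little of the other intestine markers.

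Slc51a, the alpha subunit of the basolateral exporter OST, was lower in SHR. It was 1.60, 1.80 and 2.16 in Dahl S, 1.85, 2.44 and 2.24 in Dahl R, and 1.29, 1.36 and 0.81 in SHR. The Dahl strains overlapped and SHR lay below both, by 2.03-fold against Dahl R (SHR minus Dahl R −1.02 ± 0.22, −1.01 within scan 2) and by 1.62-fold against Dahl S (Dahl S minus SHR 0.70 ± 0.22). Its partner subunit Slc51b could not be set beside it.

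Counted over the 9 genes, 1 passed the threshold between Dahl S and Dahl R, where 1.4% of all probes did, 5 between Dahl S and SHR (15.7% of all probes) and 5 between SHR and Dahl R (13% of all probes). By direction, 2 were higher and 3 lower in Dahl S than in SHR (7.08% and 8.62% of all probes), and 3 were higher and 2 lower in SHR than in Dahl R (7.56% and 5.49%). Nothing is read from these counts, since the genes were chosen with the values known. Gpbar1 was the gene counted between the Dahl strains. It was not counted there with marked spots kept, quantile normalization, the authors' values or the replicate number as a block, or without Dahl S replicate 2 or 3. Against SHR it was not counted under quantile normalization or with the authors' values. Nr1h4, Cyp8b1, Slc10a2 and Cyp27a1 were counted in both comparisons with SHR, Gpbar1 against Dahl S and Slc51a against Dahl R. Cyp27a1 was counted in neither comparison with normexp or the percentile over unmarked spots, and against Dahl S not with scan as a block or without Dahl S replicate 2. Slc51a was not counted with normexp, the percentile over unmarked spots, no filter on dim probes or the replicate number as a block, or without Dahl R replicate 2 or 3. Some calls were gained. Nr0b2 was counted between SHR and Dahl R with probes well above background on all arrays, without SHR replicate 1 and without Dahl S replicate 3. The last setting also counted it between Dahl S and SHR. That comparison gained Slc51a with probes well above background on all arrays and Cyp7b1 with the replicate number as a block. Baat was counted between SHR and Dahl R without Dahl R replicate 3. Values of the strains did not overlap for 5, 7 and 7 of the 9 genes, against 31.1%, 37.9% and 38.7% of all probes. The median size of the difference was 0.32, 0.71 and 0.87, against 0.15, 0.31 and 0.29 over all probes. The comparisons share arrays, so they are given side by side only. Whether a sequence difference between strains lies under a probe was not tested.

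**Figure D2:**
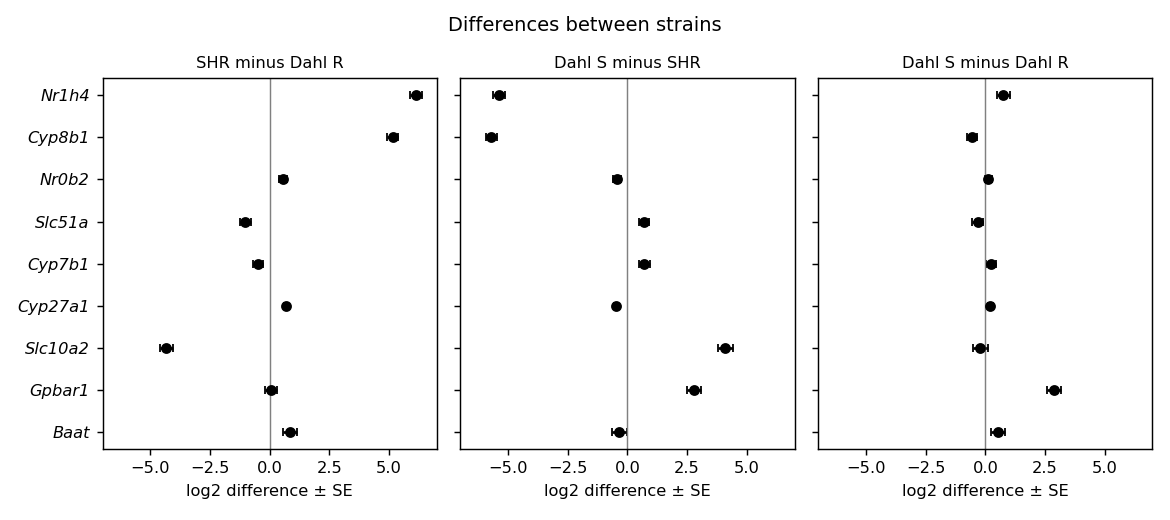
Difference between strains for the 9 bile acid genes on the log2 scale ± SE (horizontal axis), for SHR minus Dahl R, Dahl S minus SHR and Dahl S minus Dahl R. Nr1h4 and Cyp8b1 lie at 6.15 and 5.15 and Slc10a2 at −4.32 in SHR minus Dahl R, and Gpbar1 alone lies far from 0 in Dahl S minus Dahl R, at 2.87.

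Other genes of bile acid handling were taken from a list of 78 genes in 5 role groups. The list was chosen by known role, with earlier results of these data known. Of these, 64 had a probe, 47 were tested and 14 were well above background on no array, among them Cyp7a1, the rate-limiting enzyme of the classic liver pathway, and Fabp6, the ileal bile acid binding protein. Between Dahl S and SHR, 8 of 47 (17.0%) passed the threshold, 4 higher and 4 lower in Dahl S, close to the 15.7% of all probes. Between SHR and Dahl R, 10 of 47 (21.3%) passed, 3 higher and 7 lower in SHR, against 13% of all probes. Between Dahl S and Dahl R none passed with limma's adjusted p (0 of 47), while 11 had an unadjusted p under 0.05. The median difference of the 47 genes was −0.11, −0.13 and 0.06 for Dahl S minus Dahl R, Dahl S minus SHR and SHR minus Dahl R, against 0.02, −0.09 and 0.11 over all probes. Without SHR replicate 3 the counts were 8 between the Dahl strains and 19 between SHR and Dahl R. The latter was 2, 3 and 4 without Dahl R replicate 1, 2 and 3, and 5 without Dahl S replicate 2, SHR replicate 1 or SHR replicate 2. The Dahl S against SHR count was 5 without Dahl S replicate 2 or 3.

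Of 10 synthesis genes tested, 2 were higher in SHR than in Dahl R (7.56% of all probes were) and 2 were lower in Dahl S than in SHR (8.62% of all probes), with Acox2 in both. Acox2, the peroxisomal oxidase that shortens the side chain of bile acid precursors, was 1.30, 1.36 and 1.28 in Dahl S, 1.27, 1.54 and 1.27 in Dahl R, and 4.27, 4.29 and 4.46 in SHR. SHR was far above both Dahl strains, which overlapped. SHR minus Dahl R was 2.98 ± 0.11 (7.87-fold, limma adjusted p = 4.65e-06) and Dahl S minus SHR −3.03 ± 0.11 (8.15-fold higher in SHR, adjusted p = 4.84e-06), and Acox2 passed in both under each of 18 alternatives. Akr1c14, a 3α-hydroxysteroid dehydrogenase that also binds bile acids, was 0.77 ± 0.16 higher in SHR than in Dahl R (limma adjusted p = 0.0216, passed in 10 of 18 alternatives), and its Dahl S values of 2.12, 2.44 and 1.88 overlapped those of SHR. Scp2, the peroxisomal thiolase of the last side chain step, was lower in Dahl S than in SHR at −0.76 ± 0.20 (limma adjusted p = 0.0413), and passed in 6 of 18 alternatives, scan as a block not among them. Slc27a2, Amacr and Abcd3, which did not pass, differed by −0.52, 0.22 and −0.28 for Dahl S minus SHR, with limma adjusted p of 0.103, 0.394 and 0.417.

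The transport group had 11 genes tested, of which 3 were lower in SHR than in Dahl R and none higher, where 5.49% of all probes were lower and 7.56% higher. Abcb11, the canalicular bile salt export pump, was −1.26, −0.67 and −1.28 in Dahl R and −2.02, −1.82 and −1.83 in SHR, a difference of −0.82 ± 0.18 (limma adjusted p = 0.0262). Abcc2, a pump for conjugated organic anions, was lower in SHR than in Dahl R (−0.52 ± 0.12, limma adjusted p = 0.0279). It was also the 1 transport gene that passed between Dahl S and SHR, higher in Dahl S by 0.65 ± 0.12 (limma adjusted p = 0.00989). Abcg2, an apical efflux pump, differed by −0.51 ± 0.10 for SHR minus Dahl R (limma adjusted p = 0.0179). Over 18 alternatives the differences from Dahl R passed in 10 for Abcb11, 9 for Abcc2 and 11 for Abcg2. With scan as a block Abcc2 passed in neither comparison. Slco1a1, an uptake carrier of organic anions and bile acids, was 4.79, 4.65 and 4.50 in Dahl R and 3.46 and 3.82 in SHR replicates 1 and 2, with the spot of replicate 3 left out, and did not pass (−1.01 ± 0.28, limma adjusted p = 0.0625). Some alternatives took Slco1a1 past the threshold, among them marked spots kept, the authors' values and leaving out SHR replicate 3. Normexp, quantile normalization and scan as a block did not. Slco1a6 and Slco2b1 differed by 0.07 and 0.40 and did not pass either.

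Of 13 regulators tested, 1 passed between Dahl S and SHR (15.7% of all probes did) and none between SHR and Dahl R with limma's adjusted p (0 of 13, 4 at an unadjusted p under 0.05). Ppara, the fatty acid receptor, was dim: −4.84, −5.35 and −5.72 in Dahl S, −4.72, −4.91 and −5.07 in Dahl R, and −4.07, −3.89 and −4.47 in SHR. Dahl S minus SHR was −1.16 ± 0.24 (limma adjusted p = 0.0178), but 1 Dahl S and 1 SHR spot were not well above background, it passed in 10 of 17 alternatives and not with scan as a block, and with normexp background correction the difference turned to 0.32. Mafg and Nr1h2, a repressor that FXR induces and an oxysterol receptor, differed by −0.03 and 0.37 for SHR minus Dahl R and did not pass.

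In the conjugation group 2 of 3 genes tested were lower in SHR than in Dahl R, where 5.49% of all probes were. They are Ugt1a1 and Ugt1a6, glucuronosyltransferases that share their last exons, so their probes may read the same transcripts. Ugt1a1 differed by −0.47 ± 0.12 (limma adjusted p = 0.0435), and the probes of Ugt1a6 by −0.53 ± 0.12 and −0.47 ± 0.10 (limma adjusted p = 0.0348 and 0.0403). The spot of SHR replicate 3 was left out for all 3 probes, and with it kept neither gene passed. Over 18 alternatives Ugt1a1 passed in 4 and Ugt1a6 in 5. Cyp3a9, the third gene, was well above background on 2 Dahl S, 2 Dahl R and 1 SHR array and did not pass.

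Of 10 tested genes known as FXR targets outside bile acid handling, 4 passed between Dahl S and SHR (15.7% of all probes did) and 3 between SHR and Dahl R (13%). Ddah1, which breaks down the nitric oxide synthase inhibitor ADMA, was 6.47, 6.46 and 6.32 in Dahl S, 6.68, 6.47 and 6.41 in Dahl R, and 5.19, 4.89 and 5.66 in SHR. SHR lay below both Dahl strains, with SHR minus Dahl R at −1.28 ± 0.19 (2.42-fold lower, limma adjusted p = 0.0049). Kng1, the precursor of bradykinin, was also lower in SHR, by −0.86 ± 0.21 against Dahl R (limma adjusted p = 0.036, passed in 7 of 18 alternatives), with Dahl S minus SHR at 1.21 ± 0.21 (limma adjusted p = 0.00868). C3, the central complement component, was higher in Dahl S than in SHR by 1.18 ± 0.15 (limma adjusted p = 0.00235) and did not pass against Dahl R. Aqp2, the water channel of the collecting duct, was higher in SHR, by 0.64 ± 0.15 against Dahl R (limma adjusted p = 0.0356), with Dahl S minus SHR at −0.59 ± 0.15 (limma adjusted p = 0.0383, passed in 8 of 18 alternatives). All 4 are on the list as known FXR targets, and they did not share a direction between SHR and the Dahl strains. With scan as a block, Dahl S minus SHR of Kng1, C3 and Aqp2 did not pass, nor did SHR minus Dahl R of Kng1 and Aqp2, while Ddah1 passed in both. The 6 collecting duct markers with a probe (of 7 listed, Aqp2 among them) were well above background on all 9 arrays. Their signals summed to 117 to 150 in Dahl S, 112 to 145 in Dahl R and 160 to 186 in SHR. Aqp2 is the largest term on every array, so the sum largely restates Aqp2. Aqp3, the next largest, had means of 5.38 in Dahl S, 5.37 in Dahl R and 5.43 in SHR, and Scnn1b 0.32, 0.45 and 1.94. In the same order, Slc4a1 had means of 3.11, 2.33 and 2.90, Avpr2 −0.78, −1.07 and −0.70, and Atp6v1b1 −1.28, −1.52 and −0.74. The SHR means of Aqp3 and Slc4a1 are from 2 arrays. The median difference of the 6 markers was 0.60 for SHR minus Dahl R and −0.31 for Dahl S minus SHR. The part of collecting duct cells in the Aqp2 difference was not tested. Fetub, Apoc2 and Vldlr did not pass in any comparison.

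**Figure D3:**
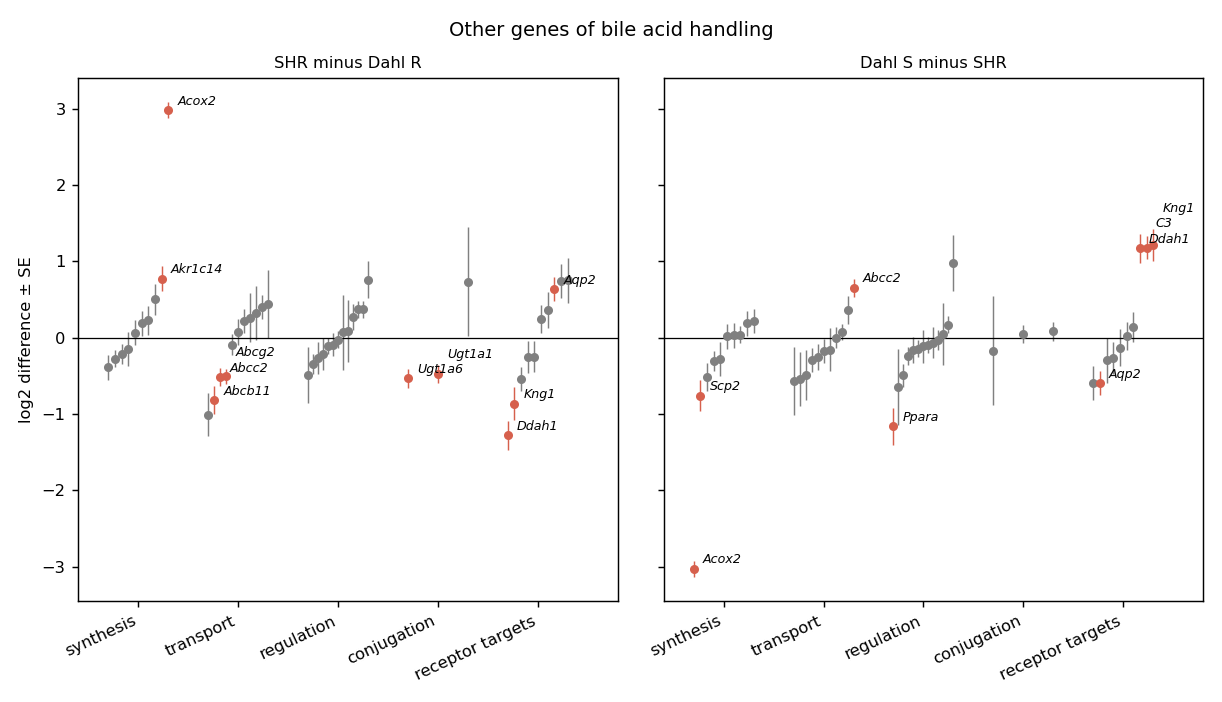
Log2 difference ± SE (vertical axis) of the 47 tested genes of the bile acid list, ordered by difference within the 5 role groups (horizontal axis), for SHR minus Dahl R and Dahl S minus SHR. Red points with names passed the threshold and grey points did not; Acox2 lies at 2.98 and −3.03, and the other genes that passed lie between −1.28 and 1.21.

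The 3 nearest protein-coding genes on each side of each bile acid gene in the RefSeq table gave 58 neighbours, of which 35 had a probe and 29 were tested. Between Dahl S and SHR 4 of 29 (13.8%) passed, and between SHR and Dahl R 3 of 29 (10.3%), close to the 15.7% and 13% of all probes. Between the Dahl strains none passed with limma's adjusted p (0 of 29, 4 at an unadjusted p under 0.05). Nr1h4 had a single tested neighbour, Actr6, a subunit of a chromatin remodeller, which differed by −0.19 ± 0.09 for SHR minus Dahl R and by −0.03 ± 0.09 for Dahl S minus SHR. Beside Cyp8b1, Higd1a and Pomgnt2 differed by 0.16 ± 0.11 and −0.16 ± 0.20 for SHR minus Dahl R. None of these 3 passed, so the differences of Nr1h4 and Cyp8b1 were not matched by those of the neighbours tested. The largest neighbour difference among those that passed was that of Wnt10a, a secreted signal near Cyp27a1, at 2.15 ± 0.30 for SHR minus Dahl R (limma adjusted p = 0.00396) and −2.17 ± 0.30 for Dahl S minus SHR (limma adjusted p = 0.0034). Prkag3, also near Cyp27a1, passed between Dahl S and SHR at −0.77, kept this in 2 of 17 alternatives and turned to 0.13 with normexp. Pcyt1a, an enzyme of phosphatidylcholine synthesis near Slc51a, was lower in SHR, at −0.60 ± 0.12 against Dahl R (limma adjusted p = 0.0164), and passed against Dahl S too. With scan as a block, Wnt10a and Pcyt1a passed between SHR and Dahl R but not between Dahl S and SHR. Rasl12, near Slc51b, passed between SHR and Dahl R at −0.81, and Zdhhc18, near Nr0b2, between Dahl S and SHR at 0.39; over 18 alternatives Rasl12 passed in 16 and Zdhhc18 in 6. The 4 tested neighbours of Gpbar1, Arpc2, Aamp, Pnkd and Tmbim1, did not pass, and Slc10a2 had none tested. In all, 5 neighbours passed in 1 or more comparisons; the number was 3 without Dahl S replicate 1, 2 or 3 or Dahl R replicate 2 or 3, and 8 without SHR replicate 3.

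The genes closest to Nr1h4 and Cyp8b1 over the arrays were found by the root mean square difference of log2 values centred on each gene's own mean. They were chosen for this likeness, and no test is given. Only genes with a usable value on every array compared could be listed. Cyp8b1, with its SHR replicate 3 spot left out, was therefore not compared over the 9 arrays used for Nr1h4. Over 9 arrays and 9004 genes, the closest to Nr1h4 were Stbd1, which binds glycogen (0.43, Pearson r 0.989), Dtx3l, a ubiquitin ligase (0.50, r 0.988), Gapdh-ps1, a pseudogene whose probe may also read Gapdh (0.74, r 0.989), Ifit1, an interferon-induced gene (0.77, r 0.990), and Ugt2a1, a glucuronosyltransferase (0.91, r 0.957). Over 8 arrays and 10479 genes, the 5 closest to Cyp8b1 included Stbd1 (0.41, r 0.985), Ugt2a1 (0.47, r 0.988), Dtx3l (0.55, r 0.986) and Nr1h4 itself (0.66, r 0.964). Stbd1 was −4.39, −4.35 and −4.44 in Dahl S, −4.60, −4.67 and −4.54 in Dahl R, and 0.91, 1.09 and 0.68 in SHR. Like Nr1h4 and Cyp8b1, it was high on each SHR array and low on each Dahl array. Ifit1 was well above background on no Dahl array, and Ugt2a1 on no Dahl S array and 1 Dahl R array, so their low values have no order. With 3 arrays high and 6 low, r mainly restates that SHR differed.

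**Figure D4:**
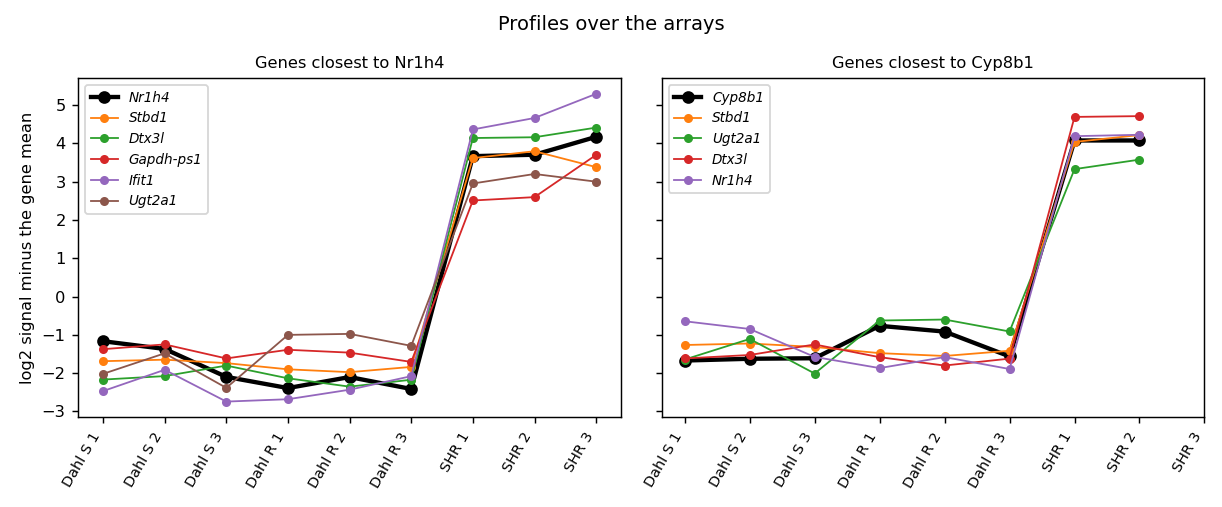
Log2 signal minus the gene's mean over the arrays (vertical axis) on each array (horizontal axis), for Nr1h4 (left, 9 arrays) and Cyp8b1 (right, 8 arrays, without SHR replicate 3) in black and, in colour, the genes named as closest to each. All lines are low on the 6 Dahl arrays and high on the SHR arrays; lines only join the points of a gene.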

How the data were processed

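Per the file headers, the authors made the deposited scanner files with Agilent Feature Extraction 10.5.1.1; the processed signal is an intensity after background subtraction and detrending, with no scaling between arrays. The deposited median signal and local background intensity were used for the normexp alternative, and deposited marks gave detection and outlier spots. A value table that the authors deposited for 19407 probes was used as well. How the authors made these values before they were deposited is not given in the sources used here; they were read as log2 because their columns correlated with log2 scanner signals at r of 0.97 on SHR replicate 3 and 0.999 or more elsewhere. Column medians were 9.63 to 9.64, the normalization is unknown, and these deposited log2 values of the authors served as an alternative only.

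From the log2 processed signal, the log2 of the 75th percentile over the 42136 non-control spots of its array was taken away. Outlier spots were dropped and the spots of a probe averaged. Testing needed a share of 0.5 or more of a probe's spots to be well above background on 3 or more of the 9 arrays, and a usable spot in each strain. Strains were compared with limma 3.58.1 in R 4.3.3 (lmFit, contrasts.fit, eBayes; all arrays, strain the only term), tested on simulated data. Benjamini-Hochberg adjustment ran over all probes, at a threshold of 0.05.

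The genes, lists and settings were chosen with earlier results of these data known, including counts under a percentile over unmarked spots, kept as an alternative. Genes named beyond the 10 are list genes that passed or, per role group, the 3 with the highest mean signal that did not; neighbours that passed; and the 5 genes closest to Nr1h4 and Cyp8b1. Other neighbours of Nr1h4, Cyp8b1 and Gpbar1 were named after their values were seen. A list gene with several tested probes is represented by the probe with the highest mean signal. The array grid uses build rn4 and the RefSeq tables GRCr8, so only promoter windows carry coordinates. The number of arrays limits the precision. Of the genes these rules name, 2 are not reported here.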

Additional observations from a re-analysis of the deposited data

How the results depend on the processing

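Nr1h4 and Cyp8b1 differed in the same direction between SHR and both Dahl strains under every alternative that gave a value, as did Slc10a2, which is not tested when a probe must be well above background on all 9 arrays. SHR minus Dahl R ranged from 5.12 to 6.50 for Nr1h4, 4.87 to 5.31 for Cyp8b1 and −5.43 to −3.43 for Slc10a2. Dahl S minus SHR ranged from −5.75 to −3.75, −6.18 to −5.07 and 3.20 to 5.21. Gpbar1 ranged from 2.16 to 2.93 for Dahl S minus Dahl R. Of 495 differences of the 9 genes under alternatives, 436 stayed within the spread between replicates and 59 moved further. Many of the 495 could not move. Leaving out an array of the strain not compared, or changing the probe filter, keeps the difference. So does a replicate block where no spot is missing. Values within a scan repeat those with scan as a block. The 436 is therefore no measure of how stable the differences were. Of 448 tests of named genes under alternatives, 288 stayed past the threshold and 158 did not; the difference turned for Ppara (Dahl S minus SHR, 0.32, adjusted p = 0.76) and Prkag3 (0.13, adjusted p = 0.888), both with normexp. Their limma adjusted p ranged from 0.00883 to 0.76 and from 0.0315 to 0.888.

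In the order Dahl S against Dahl R, then Dahl S against SHR, then SHR against Dahl R, probes past the threshold numbered 43, 550 and 416 with normexp, 40, 626 and 503 with the percentile over unmarked spots, and 93, 1491 and 1188 with no filter on dim probes, when more probes were tested. With scan as a block the Dahl S against SHR count was 866. Leaving out 1 array gave 74 to 761, 1280 to 4345 and 960 to 3772. The replicate numbers did not pair the samples: same-numbered arrays deviated together with r from −0.164 to 0.0616, and with the number as a replicate block the counts were 75, 1902 and 1424; Gpbar1 between the Dahl strains and Slc51a were then not past the threshold. List genes past the threshold numbered 1 between the Dahl strains with quantile normalization (Abcg2) and with probes well above background on all arrays (Akr1c14), and 0 to 8 when 1 array was left out. Between Dahl S and SHR they numbered 2 with normexp, 2 with the unmarked percentile, 3 with scan as a block, and 5 to 8 when 1 array was left out. Between SHR and Dahl R they numbered 2, 2 and 3 with normexp, the unmarked percentile and no filter, and 2 to 19 when 1 array was left out. Neighbours past the threshold numbered 1, 1 and 3 under the same settings, and 3 to 8 when 1 array was left out. The cause was not tested.

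The share of calls higher in the first strain was 50.2%, 45.1% and 57.9%, and 65.1%, 70.4% and 41.1% with normexp; it was 61.3% with scan as a block for Dahl S against SHR. The unmarked percentile moved the median of all probes to −0.42 for Dahl S minus SHR and 0.42 for SHR minus Dahl R, and normexp to 0.11 for Dahl S minus SHR. On SHR replicate 3 no probe under −2.99 was well above background, against −5.92 to −7.51 on the other arrays, which limits dim values there.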
